A study of Mus musculus with 4 samples.

Results

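The 10 genes studied here encode amino acid transporters, and they were followed through the deposited table of transcript levels: Slc7a5, Slc7a11, Slc3a2, Slc7a1, Slc7a3, Slc1a4, Slc1a5, Slc38a1, Slc38a2 and Slc6a9. They were taken by symbol from a fixed list that was chosen with earlier results of these data known. All 10 were found among the 32230 gene symbols of the table. The libraries came from 4F2A mouse embryonic fibroblasts, in which doxycycline switches on transgenes for Oct4, Sox2, Klf4 and Myc, the factors used to reprogram cells. Per the labels, they were obtained from midgestation embryos, male and homozygous for 4F2A, and all of them received 2 µg/mL doxycycline for 48 h in a medium with serum replacement, non-essential amino acids, glutamine and LIF. The vehicle group was given DMSO and the treated group CX-5461, an inhibitor of RNA polymerase I, for 1 h on day 0, and polyadenylated RNA was sequenced on day 2. Each group held 2 libraries, numbered 2 and 3. The labels do not say whether those were separate cultures, so every p-value measures only the spread between these libraries, which may be technical.

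Amino acid transporters move amino acids across the plasma membrane, and most of the 10 work as exchangers or by coupling to sodium. The product of Slc3a2 is the heavy chain of CD98, a membrane glycoprotein that carries light chains of the SLC7 family, among them SLC7A5 (LAT1, which imports leucine and other large neutral amino acids) and SLC7A11 (xCT, which imports cystine in exchange for glutamate). Cells that grow and divide need large amounts of leucine, glutamine and serine, and many transporter genes are known targets of ATF4, a transcription factor whose translation rises when amino acids are short. ATF4 acts with C/EBP partners on a sequence called the C/EBP-ATF response element.

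That element is the reason for showing promoter sequence here. RefSeq promoter windows (build GRCm38.p6, 250 bases before to 50 after a start site) were given for 6 of the 10 genes, with none for Slc7a5, Slc7a3, Slc1a5 and Slc38a1. The core TGATGNAA, searched on both strands, was found in the windows of 2 of the 6, Slc7a11 and Slc1a4, and in those of 4.51% of the 27025 genes with a window. It lay at -66 to -59 and again, on the other strand, at -47 to -40 in Slc7a11, and at -4 to 4 in Slc1a4, where 1 is the first transcribed base and there is no 0. The stretches below run from 130 bases before to 20 after the start on the gene's own strand, with matches to the core in capitals. Slc3a2 is shown beside them because it is the partner of the SLC7A11 protein and its window held no match. That window lies inside the gene as annotated (8706882 to 8723369), so the gene's outer start was not searched.
Slc7a11, chr3:50443594-50443743, minus strand: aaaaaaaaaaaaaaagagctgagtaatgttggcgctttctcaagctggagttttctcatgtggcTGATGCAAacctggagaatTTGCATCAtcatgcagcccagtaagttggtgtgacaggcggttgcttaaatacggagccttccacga
Slc1a4, chr11:20332694-20332843, minus strand: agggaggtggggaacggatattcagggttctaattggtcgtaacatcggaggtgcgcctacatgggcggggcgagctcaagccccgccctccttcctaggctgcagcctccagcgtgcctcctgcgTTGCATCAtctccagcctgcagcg
Slc3a2, chr19:8713878-8714027, minus strand: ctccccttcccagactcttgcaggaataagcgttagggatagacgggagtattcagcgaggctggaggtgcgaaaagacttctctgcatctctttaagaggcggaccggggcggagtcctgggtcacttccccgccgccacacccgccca
The E-box CACGTG was in none of the 6 members' windows and in those of 8.09% of all genes. The core of the antioxidant response element, TGACNNNGC, was in windows of 3 members, Slc7a1, Slc38a2 and Slc6a9, and of 13.99% of all genes. A match is a stretch of letters and not a measured binding site, and the windows do not cover elements that lie further away or inside introns.

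Of the amino acid transporters, 6 of 10 fell with CX-5461 and 0 rose. The 6 that fell were Slc7a5, Slc1a5, Slc1a4, Slc7a11, Slc38a1 and Slc7a1. Levels are in TPM, in which the reads of a gene are divided by its length and then scaled so that each library sums to 1000000. The test was limma on log2(TPM + 1), fitted over the 14621 genes whose mean reached 1 TPM, and a gene passed at a Benjamini-Hochberg adjusted p under 0.05. In the same fit, 8.21% of all genes tested were lower and 11.6% were higher. On simulated data, false calls of this fit exceeded the nominal share, so a pass is weaker evidence than its adjusted p states. The median log2 difference was -0.68 over the 10 transporters and 0.07 over all genes tested. The 10 and the related lists further down were chosen with earlier results of these data known. Shares of all genes beside them are therefore a description and not a test. The groups did not overlap for 9 of the 10, lower in 8 and higher in 1, where 26.3% of all genes were lower and 38.2% higher without overlap. At an unadjusted p under 0.05, 8 members were lower and 1, Slc3a2, was higher, where 14.5% of all genes were lower and 21.4% higher. Limma's voom on read numbers recovered from the TPM values, an alternative chosen after the data were seen, called 8 lower and 0 higher, where it called 16.0% of all genes lower and 15.4% higher. The count of 6 lower became 4 without DMSO replicate 2, 4 without DMSO replicate 3, 3 without CX-5461 replicate 2 and 2 without CX-5461 replicate 3. In RNA from bulk culture, fewer cells that express a gene and less RNA of it per cell cannot be told apart.

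**Figure D1:**
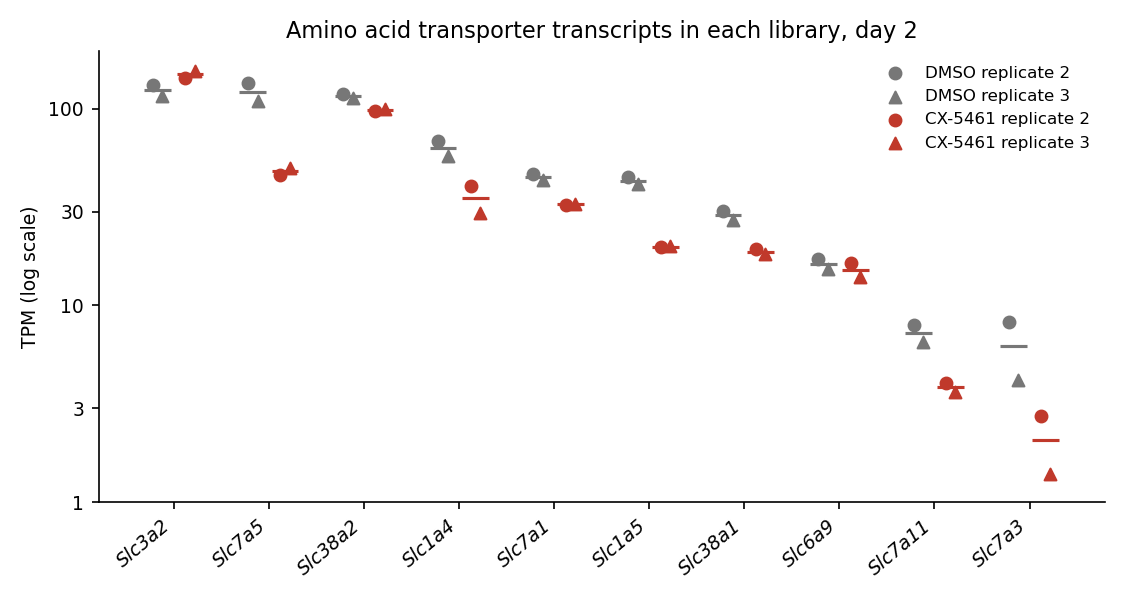
TPM of each transporter (log scale) in the 4 libraries, ordered by the mean of the DMSO group. Circles are replicate 2, triangles replicate 3, short lines the means of the 2 libraries of a group; the CX-5461 libraries lie below both DMSO libraries for 8 genes, above them for Slc3a2, and overlap them for Slc6a9.

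The libraries differed in composition. Mitochondrially encoded transcripts took 15.3% of TPM in DMSO replicate 3 and 9.20% to 9.96% in the other 3 libraries, and every one of the 10 transporters was lower in DMSO replicate 3 than in DMSO replicate 2. With TPM rescaled without those and the 20 highest genes, 8 of the 10 transporters fell and 0 rose. That rescaling also moved genes outside the list down, such as the markers Col3a1 (log2 difference from -0.46 to -0.53) and Lyz2 (from 0.65 to 0.58). The share of all genes called under it is not given here, so the count of 8 has no background beside it. Depth, recovered from the TPM values, came to 34960078 to 37280441 reads per library. All 10 fibroblast markers had a mean above 1 TPM. Their sum was 10041 to 12294 TPM in the DMSO libraries and 8644 to 8926 TPM in the CX-5461 libraries. Col1a1 and Vim, the largest parts of it, did not pass (limma adjusted p = 0.416 and 0.0910). Postn was higher without overlap, with means of 183 TPM with DMSO and 191 TPM with CX-5461, and did not pass (0.624). Of the 10 markers, 5 fell, beside the 8.21% lower of all genes. Those were Lum (log2 difference -1.03, limma adjusted p = 0.00131), Pdgfra (-0.85, 0.00415), Thy1 (-0.62, 0.0145), Dcn (-0.58, 0.0101) and Col3a1 (-0.46, 0.0423). The log2 difference of Lum was -1.05 to -1.02 with 1 library left out. That count of 5 became 2 without CX-5461 replicate 2, 1 without CX-5461 replicate 3, and 8 by median of ratios, with rescaled TPM or with voom. Of the 6 macrophage markers, 5 had a mean above 1 TPM and Ptprc stood at 0.656 to 1.27 TPM. The macrophage sum was 604 to 605 TPM with DMSO and 865 to 973 TPM with CX-5461. Most of it was Lyz2, at 528 and 508 TPM with DMSO and at 775 and 855 TPM with CX-5461. Csf1r, Cd68 and C1qa overlapped between groups and did not pass (limma adjusted p = 0.377, 0.653 and 0.512), and Ptprc overlapped as well. Lyz2 and Adgre1 rose. Both calls ended without CX-5461 replicate 2 (adjusted p = 0.0698 for Lyz2 and 0.105 for Adgre1) or CX-5461 replicate 3 (0.118 and 0.0803). None of the 5 pluripotency markers reached a mean of 1 TPM, and Dppa5a and Tdgf1 were at 0. Of the keratinocyte markers 4 of 8, of the neural 4 of 6, of the endothelial 2 of 6, of the skeletal muscle 1 of 6 and of the erythroid 0 of 4 reached that mean. Kdr, an endothelial receptor, rose from 6.29 ± 0.180 to 24.0 ± 0.197 TPM (limma adjusted p = 0.000729), whichever library was left out. Tek, another endothelial receptor, fell (adjusted p = 0.0299), a call that ended whichever library was left out (0.0567 and 0.0670 without DMSO replicates 2 and 3, 0.159 and 0.221 without CX-5461 replicates 2 and 3). Des, the muscle gene desmin, rose (0.0229), but not without DMSO replicate 3 (0.0574), CX-5461 replicate 2 (0.144) or CX-5461 replicate 3 (0.160). The part of these markers in the transporter differences was not tested.

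Both light chains of CD98 among the members fell, and the heavy chain did not pass. Slc7a5 (chromosome 8, 121881150 to 121907694, mm10) stood at 135 and 109 TPM in the DMSO libraries and at 46.1 and 49.9 TPM in the CX-5461 libraries. Both CX-5461 values were less than the lower DMSO value, and the mean went from 122 ± 18.5 to 48.0 ± 2.73 TPM (SD, n = 2). This was the largest fold among the members that passed, 2.54-fold lower, with a log2 difference of -1.32 (SE 0.13, limma adjusted p = 0.00239). It passed whichever library was left out, with log2 differences of -1.48 to -1.17.

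Slc7a11 (chromosome 3, 49892526 to 50443614), which supplies cystine for glutathione synthesis, had a low TPM in these cells. Its annotated exons cover 13922 bases, and with DMSO it had about 1138.5 and 1052.4 recovered reads. Its level was 7.95 and 6.54 TPM with DMSO and 4.03 and 3.64 TPM with CX-5461, so the groups were apart. The log2 difference was -0.77 (SE 0.17, limma adjusted p = 0.0290), and on a linear scale the mean was 1.89-fold lower. The call ended when any 1 library was left out: the adjusted p was 0.0937 without DMSO replicate 2, 0.0625 without DMSO replicate 3, 0.116 without CX-5461 replicate 2 and 0.170 without CX-5461 replicate 3. It also ended without the filter on low values (0.0572).

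Slc3a2 (chromosome 19, 8706882 to 8723369), the heavy chain shared by both, stood at 132 and 116 TPM with DMSO and at 144 and 156 TPM with CX-5461. It was the one member whose CX-5461 libraries both exceeded the DMSO libraries. The log2 difference of 0.27 (95% confidence interval 0.02 to 0.52) did not pass (limma adjusted p = 0.114), and it passed under none of the 14 other settings. The estimate was positive in each of them.

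Because a ratio of 2 genes in 1 library does not depend on how that library is scaled, light chains were also set against the heavy chain. The ratio of Slc7a5 to Slc3a2 was 1.02 and 0.941 with DMSO and 0.321 in each CX-5461 library. For Slc7a11 to Slc3a2 it was 0.0603 and 0.0564 against 0.0280 and 0.0234. Both ratios were thus lower in each CX-5461 library than in either DMSO library. Summed over Slc7a5, Slc7a11 and the other partners of CD98 on the list of further transporters, Slc7a6, Slc7a7, Slc7a8 and Slc7a10, light chains came to 1.57 and 1.46 times the heavy chain with DMSO. With CX-5461 they came to 0.646 and 0.606 times. With 2 libraries a group, the smallest two-sided p of an exact permutation test is 0.333, so no test of the ratios is given.

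**Figure D2:**
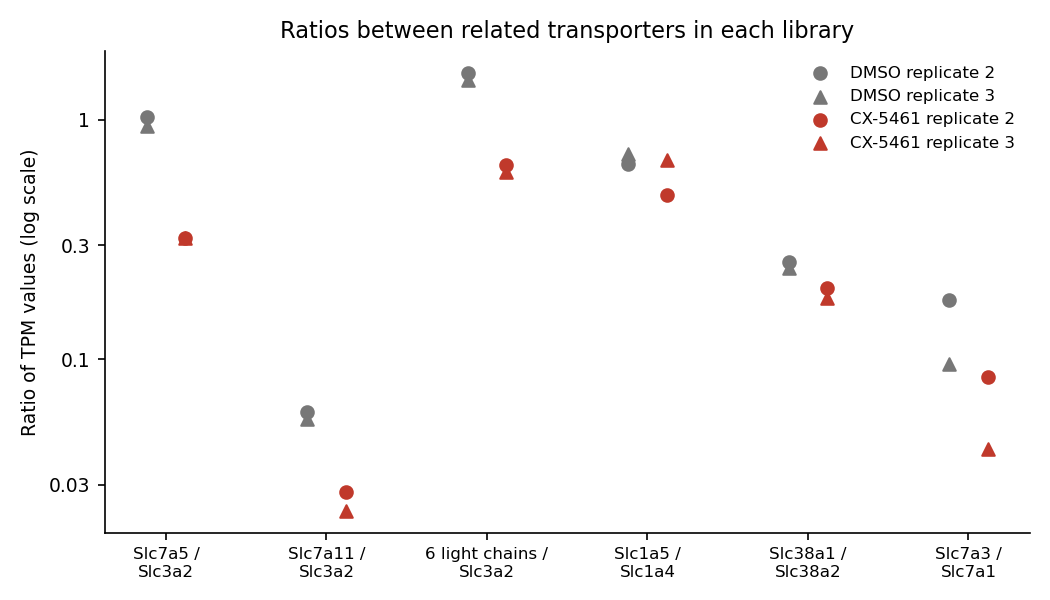
Ratios of TPM values within each library (log scale) for 6 pairs or sums of related transporters, DMSO in grey and CX-5461 in red. The CX-5461 points lie below the DMSO points in 5 of the 6, among them Slc7a5 to Slc3a2 (0.321 against 0.941 and above), and overlap for Slc1a5 to Slc1a4.

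The glutamine and neutral amino acid exchangers of the SLC1 family both fell. Slc1a5 (chromosome 7, 16781340 to 16798274) encodes ASCT2, a sodium-dependent exchanger that brings in glutamine. It stood at 44.8 and 41.3 TPM with DMSO and at 19.8 and 19.99 TPM with CX-5461. Replicates were close together and the groups far apart, with a mean 2.17-fold lower, a log2 difference of -1.08 (SE 0.10) and a limma adjusted p of 0.00198. Like Slc7a5, it passed whichever library was left out, with log2 differences of -1.14 to -1.02.

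Slc1a4 (chromosome 11, 20302180 to 20332713) encodes ASCT1, which exchanges alanine, serine and cysteine. Its level was 68.4 and 57.4 TPM with DMSO and 40.7 and 29.5 TPM with CX-5461, so replicates spread more than for Slc1a5. The log2 difference was -0.84 (SE 0.17, limma adjusted p = 0.0277). The call ended without DMSO replicate 2 (adjusted p = 0.0957), DMSO replicate 3 (0.0691) or CX-5461 replicate 3 (0.139). It also ended without the filter on low values (0.0647) and without limma's trend and robust options (0.0617). The ratio of Slc1a5 to Slc1a4 was 0.655 and 0.720 with DMSO and 0.486 and 0.677 with CX-5461, which overlap.

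The cationic amino acid transporters Slc7a1 and Slc7a3, which take up arginine and lysine, lay at very different levels. Slc7a1 (chromosome 5, 148327410 to 148399904) stood at 46.7 and 43.3 TPM with DMSO and at 32.6 and 32.8 TPM with CX-5461. The groups were apart, and the mean fell by 27.4%, with a log2 difference of -0.45 (SE 0.09, limma adjusted p = 0.0234). Without CX-5461 replicate 2 the adjusted p was 0.156, without CX-5461 replicate 3 it was 0.172, and without the trend and robust options it was 0.0552.

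Slc7a3 (chromosome X, 101079210 to 101086020) stood at 8.28 and 4.16 TPM with DMSO and at 2.75 and 1.39 TPM with CX-5461. Those values rest on 322, 182, 107 and 53 recovered reads, the fewest of the 10 genes. In both groups replicate 2 lay well above replicate 3, and the CX-5461 values were both below the DMSO values. The log2 difference of -1.21 had a wide 95% confidence interval, -2.12 to -0.29, and did not pass (limma adjusted p = 0.0744). It passed with 4 of the other settings: median-of-ratios scaling (adjusted p = 0.0469), TPM rescaled as above (0.0484), the replicate block (0.00995) and voom on recovered reads (0.00455). The ratio of Slc7a3 to Slc7a1 was 0.177 and 0.0960 with DMSO and 0.0846 and 0.0423 with CX-5461.

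The sodium-coupled neutral transporters Slc38a1 and Slc38a2 (SNAT1 and SNAT2), which accumulate glutamine and alanine, lie near each other on chromosome 15. Slc38a1 (96571418 to 96642913) stood at 30.1 and 27.3 TPM with DMSO and at 19.4 and 18.2 TPM with CX-5461. It fell with a log2 difference of -0.59 (SE 0.10, limma adjusted p = 0.0162), 1.53-fold on the scale of the means. The call ended without CX-5461 replicate 2 (adjusted p = 0.0949) or CX-5461 replicate 3 (0.144).

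Slc38a2 (96687392 to 96699730), the more abundant of the pair per length, stood at 118 and 113 TPM with DMSO and at 97.9 and 100.2 TPM with CX-5461. The CX-5461 libraries were both below the DMSO libraries, but the log2 difference of -0.22 (95% confidence interval -0.42 to -0.02) did not pass (limma adjusted p = 0.111). It passed with each of the 3 other scalings (adjusted p = 0.0357 by median of ratios, 0.0282 by quantiles and 0.0374 for rescaled TPM) and with voom (0.00580). The ratio of Slc38a1 to Slc38a2 was 0.254 and 0.242 with DMSO and 0.198 and 0.181 with CX-5461.

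Slc6a9 (chromosome 4, 117834506 to 117875198) encodes GLYT1, a sodium- and chloride-coupled glycine transporter. It stood at 17.3 and 15.3 TPM with DMSO and at 16.4 and 13.96 TPM with CX-5461, and the groups overlapped. The log2 difference was -0.10 (95% confidence interval -0.42 to 0.23, limma adjusted p = 0.629). Of its exon bases, 27.8% are shared with Ccdc24, 9.94% with Gm17114 and 0.895% with B4galt2, all on the opposite strand. The sources used here do not say whether strand was used in counting, so reads of these genes may be mixed with those of Slc6a9. For the other 9 members no annotated gene shared exon bases.

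**Figure D3:**
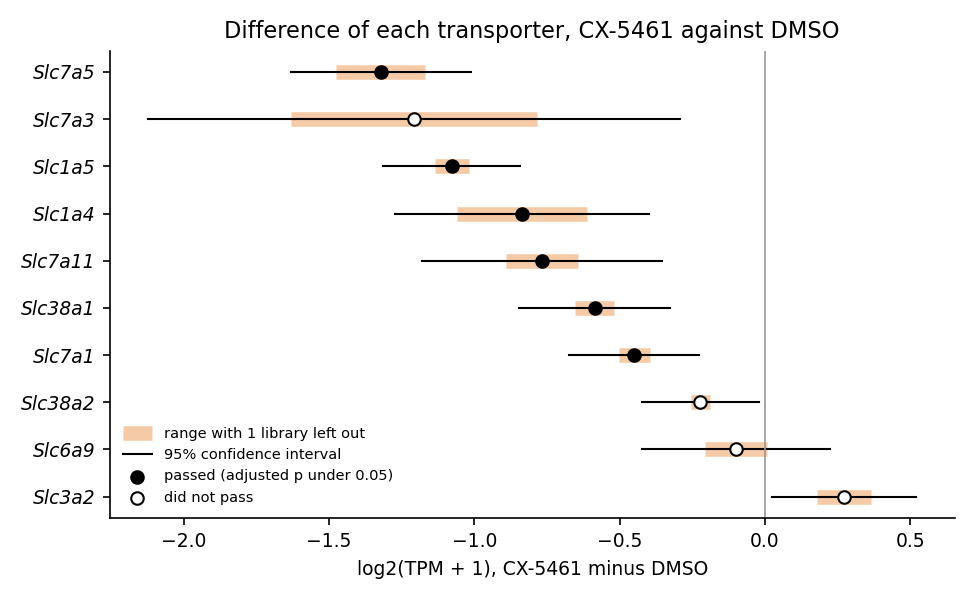
Differences in log2(TPM + 1), CX-5461 minus DMSO, with 95% confidence intervals (lines) and the range over fits that leave out 1 library (bars). Filled points passed; Slc7a5 at -1.32 and Slc1a5 at -1.08 are the members that passed whichever library was left out, and Slc3a2 at 0.27 is the one estimate above 0.

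Slc7a5 went from the second place to the third in the order of levels. With DMSO, Slc3a2 (124 ± 11.4 TPM), Slc7a5 (122 ± 18.5) and Slc38a2 (116 ± 3.77) led, and neighbours in that order overlapped. With CX-5461 the leaders were Slc3a2 (149.7 ± 8.54 TPM), Slc38a2 (99.03 ± 1.63) and Slc7a5 (48.0 ± 2.73), each apart from the next. The lower places, from Slc1a4 at the fourth to Slc7a3 at the last, were the same in both groups, although Slc7a1 and Slc1a5, and Slc7a11 and Slc7a3, overlapped with DMSO, and Slc1a4 and Slc7a1 with CX-5461. Summed over the 10 genes, levels came to 609 and 533 TPM with DMSO and to 423 and 425 TPM with CX-5461. The share of Slc7a5 in that sum was 22.2% and 20.4% with DMSO and 10.9% and 11.7% with CX-5461. That of Slc3a2 was 21.7% in each DMSO library, and 33.95% and 36.6% with CX-5461.

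**Figure D4:**
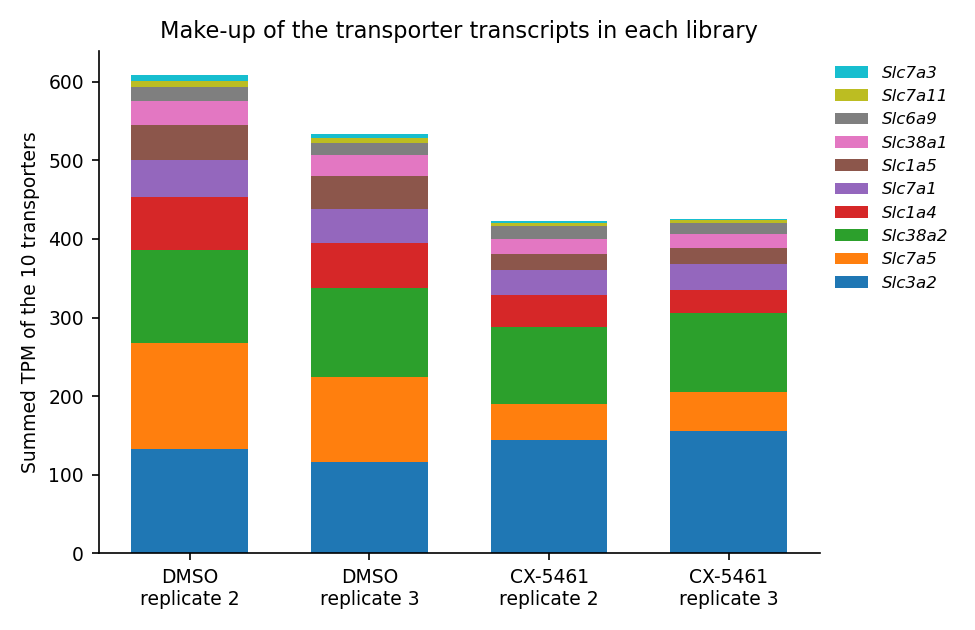
Summed TPM of the 10 transporters in each library, stacked by gene. The DMSO bars reach 609 and 533 TPM and the CX-5461 bars 423 and 425 TPM; the Slc7a5 band narrows from 135 and 109 TPM to 46.1 and 49.9 TPM.

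Of 33 other amino acid transporters of the plasma membrane in the table, 16 had a mean of at least 1 TPM, and 2 of those fell and 1 rose, beside the 8.21% lower and 11.6% higher of all genes, with a median log2 difference of -0.05. Slc38a4, a relative of Slc38a2, stood at 85.2 and 70.4 TPM with DMSO and at 30.6 and 34.9 TPM with CX-5461 (log2 difference -1.22, limma adjusted p = 0.00317). Slc7a6, another light chain of CD98, fell from 46.2 ± 5.37 to 31.0 ± 0.443 TPM (adjusted p = 0.0217), a call that ended without CX-5461 replicate 2 (0.133) or CX-5461 replicate 3 (0.164), without the filter (0.0510) and without the trend and robust options (0.0540). Slc7a8 (LAT2), the close relative of Slc7a5, had a mean of 3.97 ± 0.0455 TPM with DMSO and 3.86 ± 0.285 TPM with CX-5461 (adjusted p = 0.902). Slc1a6, a glutamate transporter known from cerebellar neurons, was the one that rose, from 8.995 and 8.32 TPM to 29.7 and 21.4 TPM (log2 difference 1.44, adjusted p = 0.00479). Slc38a4 and Slc1a6 passed whichever library was left out.

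Of 18 measured amino acid transporters of lysosome and mitochondrion, 1 rose and 1 fell, beside the 11.6% higher and 8.21% lower of all genes. Their median log2 difference was 0.12, against 0.07 over all genes tested. Slc25a22, a mitochondrial glutamate carrier, rose from 19.3 ± 0.614 to 27.9 ± 0.270 TPM (limma adjusted p = 0.0181). That call ended without DMSO replicate 3 (adjusted p = 0.0575), CX-5461 replicate 2 (0.126) or CX-5461 replicate 3 (0.155). Slc25a13, a mitochondrial aspartate-glutamate carrier, fell from 19.8 ± 3.64 to 11.6 ± 2.47 TPM (adjusted p = 0.0488). Its call ended whichever library was left out (adjusted p of 0.0761 to 0.220: 0.152 without DMSO replicate 2, 0.0761 without DMSO replicate 3, 0.220 without CX-5461 replicate 2 and 0.102 without CX-5461 replicate 3). It ended as well with the replicate block (0.0596), without the filter (0.104) and without the trend and robust options (0.0877).

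Genes of the ATF4 program share known regulators with several of the transporters. Of the 31 measured, 13 fell and 3 rose, beside the 8.21% lower and 11.6% higher of all genes, with a median log2 difference of -0.39. This list too was chosen with earlier results of these data known, so these shares are a description and not a test. The 3 that rose are a share close to that of all genes. Atf4 itself stood at 228 and 212 TPM with DMSO and at 188 and 182 TPM with CX-5461, a log2 difference of -0.25 that did not pass (limma adjusted p = 0.0899). With the other scalings it passed (0.0298 by median of ratios, 0.0212 by quantiles, 0.0262 for rescaled TPM), as it did with voom (0.00639). Trib3, a pseudokinase induced by ATF4, fell from 28.1 ± 0.537 to 12.3 ± 0.824 TPM and Asns, the asparagine synthetase gene, from 166 ± 10.1 to 85.0 ± 4.33 TPM. Aldh18a1 of proline synthesis fell from 130.5 ± 15.5 to 60.3 ± 1.86 TPM and Shmt2, the mitochondrial serine hydroxymethyltransferase gene, from 162 ± 1.94 to 92.1 ± 1.29 TPM. Their limma adjusted p ran from 0.00232 to 0.00266. Trib3, Asns and Aldh18a1 passed whichever library was left out, while Shmt2 missed the threshold without CX-5461 replicate 2 (0.0516) or CX-5461 replicate 3 (0.0531).

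The count for this program was 7 lower without CX-5461 replicate 2 and 5 lower without CX-5461 replicate 3. The 3 members that rose were singled out after their values were seen: Ddit3, a stress-induced factor (0.43), Cebpb, a C/EBP factor (0.46), and Sesn2, a leucine sensor also known as a p53 target (0.75). Without CX-5461 replicate 2 or without CX-5461 replicate 3, none of these 3 passed. Without DMSO replicate 3, Cebpb did not pass either, and without the trend and robust options Ddit3 (0.0523) and Cebpb (0.0593) did not. Chac1, which degrades glutathione, fell from 27.5 ± 4.34 to 15.7 ± 4.00 TPM (adjusted p = 0.0468), and its call ended whichever library was left out (0.149 without DMSO replicate 2, 0.0887 without DMSO replicate 3, 0.0610 without CX-5461 replicate 2 and 0.207 without CX-5461 replicate 3), without the filter (0.0983) and without the trend and robust options (0.0862). Myc, whose product is known to drive several amino acid transporter genes and is also encoded by a transgene here, stood at 330 and 376 TPM with DMSO and at 216 and 217 TPM with CX-5461 (limma adjusted p = 0.00643, but 0.0853 without CX-5461 replicate 2 and 0.0972 without CX-5461 replicate 3).

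**Figure D5:**
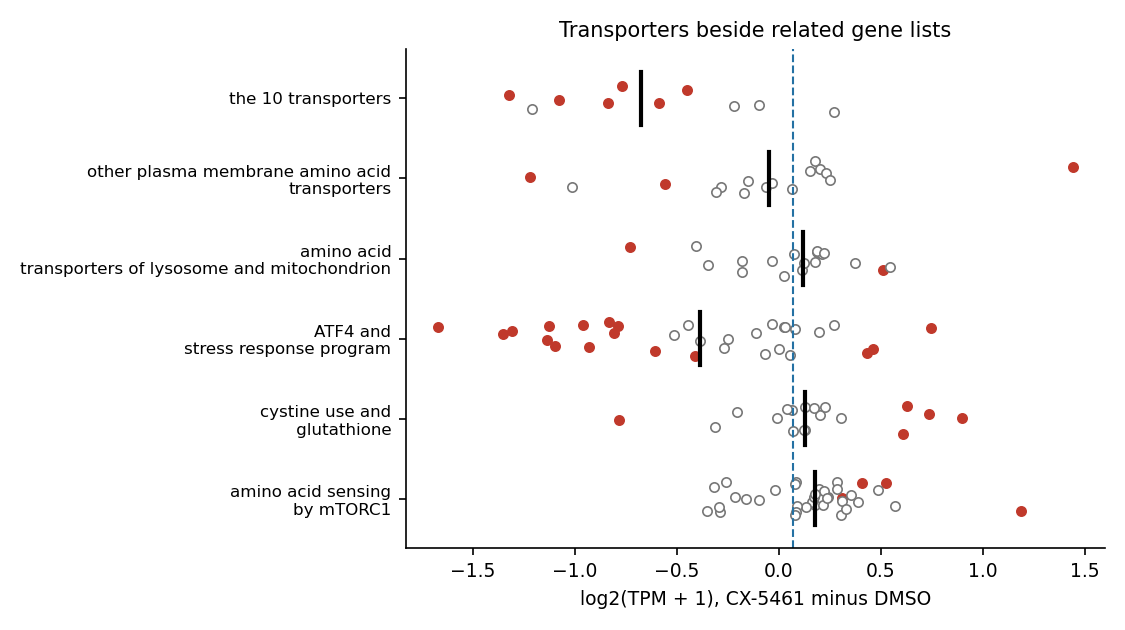
Differences in log2(TPM + 1), CX-5461 minus DMSO, for the tested genes of the 10 transporters and 5 related lists; red points passed, open points did not, black bars are list medians and the dashed line is the median of all genes tested (0.07). The medians of the transporters (-0.68) and of the ATF4 program (-0.39) lie furthest to the left. Transporters and lists were chosen with earlier results of these data known.

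Of 18 measured genes of cystine use, glutathione and antioxidant defence, 4 rose and 1 fell, beside the 11.6% higher and 8.21% lower of all genes. Their median log2 difference was 0.13, against 0.07 over all genes tested. Gss, glutathione synthetase, rose from 27.4 ± 0.0772 to 52.1 ± 0.680 TPM (limma adjusted p = 0.00239) and did so whichever library was left out. Gpx4, which uses glutathione against lipid peroxides, rose from 296 ± 23.7 to 452 ± 17.01 TPM, Hmox1, heme oxygenase, from 312 ± 20.6 to 520.0 ± 28.3 TPM, and Oplah, which recovers glutamate from oxoproline, from 8.57 ± 0.823 to 13.8 ± 0.795 TPM. Gsr, glutathione reductase, fell from 53.6 ± 6.12 to 30.6 ± 0.111 TPM. The calls of Gpx4, Hmox1 and Gsr ended without CX-5461 replicate 2 (adjusted p = 0.0924, 0.0619 and 0.0764) or CX-5461 replicate 3 (0.134, 0.0944 and 0.0864). Oplah, singled out after its value was seen, missed the threshold without DMSO replicate 3 (0.0836), CX-5461 replicate 2 (0.159) or CX-5461 replicate 3 (0.134), and without the filter (0.0524). Gclc and Gclm, subunits of the enzyme that starts glutathione synthesis, did not pass (0.20 and -0.31), although Gclm passed with the other scalings (0.0305 by median of ratios, 0.0311 by quantiles, 0.0329 for rescaled TPM) and with voom (0.00645). Nfe2l2, which encodes the antioxidant regulator NRF2, had a mean of 102 ± 14.9 TPM with DMSO and 88.6 ± 7.74 TPM with CX-5461 (adjusted p = 0.313).

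Of 37 genes of the growth kinase complex mTORC1, its regulators and its targets, 4 rose and 0 fell in the limma fit, with a median log2 difference of 0.18. The 4 that rose are a share close to the 11.6% of all genes. At an unadjusted p under 0.05, 12 were higher and 1 was lower, beside 21.4% and 14.5% of all genes, and voom called 10 higher and 4 lower, beside 15.4% and 16.0%. Castor1, an arginine sensor, rose from 35.4 and 28.8 TPM to 73.3 and 74.7 TPM (log2 difference 1.19, adjusted p = 0.00286), whichever library was left out. The other 3 were Flcn, folliculin (0.53), Rraga, a Rag GTPase that brings mTORC1 to the lysosome (0.41), and Akt1s1, an inhibitory subunit of mTORC1 (0.31). Without CX-5461 replicate 2 or CX-5461 replicate 3 none of these 3 passed (adjusted p of 0.105 and 0.159 for Flcn, 0.153 and 0.213 for Rraga, 0.272 and 0.262 for Akt1s1), and Akt1s1 also missed the threshold without DMSO replicate 3 (0.0577) and with the other scalings (0.0689 by median of ratios, 0.0869 by quantiles, 0.0686 for rescaled TPM). Its call ended as well with the replicate block (0.0787), without the filter (0.0661) and without the trend and robust options (0.103), and that of Rraga without the trend and robust options (0.0607).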

How the data were processed

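The authors deposited TPM values per gene symbol for 4 libraries, and each column summed to 1000000. Per the labels' protocols, reads of 150 bases were cleaned on the BMKCloud platform, and the submitters' processing notes name build mm10. How reads were aligned and counted, and with which annotation, is not given in the sources used here. Since TPM is a share of each library, values of one gene depend on the most abundant others. Groups and replicate numbers came from sample titles, and 0 columns were left unused.

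Genes whose mean reached 1 TPM entered limma 3.58.1 as log2(TPM + 1) (lmFit, eBayes with trend and robust) in R 4.3.3, with no covariate, 2 residual and 3.75 prior degrees of freedom, and Benjamini-Hochberg adjustment over all genes tested. The log scale understates changes of low genes. Read numbers were recovered as TPM times exon length (GENCODE M21, mm10) times a constant per library: of values below 10000 reads, 69.6% to 69.8% were whole to within 0.01. They were whole in every library for 6 of the 10 transporters, and close estimates for Slc7a11, Slc3a2, Slc38a1 and Slc6a9. For voom, library sizes were set by the median of ratios. Other settings are given in the closing section. Named genes were the 10 transporters, up to 4 per list with the smallest adjusted p among those that passed without overlap, and 10 reference genes. Members and lists were chosen with earlier results of these data known. The fit was tested on simulated data, where most genes given the larger changes were recovered but false calls exceeded the nominal share. The share recovered among smaller changes is not given here. Promoter windows came from RefSeq, and Python 3.11.15, numpy 2.4.6, pandas 2.3.3 and matplotlib 3.10.9 were used.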

Additional observations from a re-analysis of the deposited data

How the results depend on the processing

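The 14 other settings changed the pseudocount (0.1 or 5), the filter (none, or 5 TPM), the scaling (median of ratios, quantiles, or TPM rescaled without the 20 highest and the mitochondrially encoded genes) or limma's trend and robust options, added a replicate block, left out each library, or used voom (chosen after the data were seen). Slc7a5 and Slc1a5 passed under all 14, and Slc3a2 under none. With a filter of 5 TPM Slc7a3 was not tested. Each other scaling also moved Lyz2, a gene outside the list, down from a log2 difference of 0.65 to 0.58. The shares of all genes called under those scalings are not given here, so counts under them have no background beside them. The number of transporters lower was 4 without the filter and without trend and robust options, 8 by median of ratios, rescaled TPM and voom, 7 by quantiles and with the replicate block, and 2 to 4 with 1 library left out; none was higher in any setting. Slc6a9 changed sign without CX-5461 replicate 3 (0.0081; range over libraries left out -0.206 to 0.0081), as did Slc7a8 without CX-5461 replicate 2 (0.0263; range -0.0935 to 0.0263); neither was called, and the cause was not tested.

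Other plasma membrane transporters lower (main 2) numbered 1 without the filter and without trend and robust options, and 3 with the replicate block and voom, and 1 to 2 with 1 library left out. For transporters of lysosome and mitochondrion (main 1 and 1), 3 were higher with the filter of 5 TPM, quantiles and voom, 2 by median of ratios and rescaled TPM, and 0 to 3 with 1 library left out. Lower were 2 with the filter of 5 TPM and with each other scaling, 4 with voom, and 0 without the filter, without trend and robust options, with the replicate block and with any library left out. In the ATF4 program, 1 was higher without trend and robust options and 0 to 4 with 1 library left out, where 5 to 10 were lower. Of glutathione genes, 2 were lower with each other scaling and voom, 0 to 1 with 1 library left out, and 1 to 5 were higher there. Of mTORC1 genes, 2 were higher without trend and robust options, 10 with voom and 1 to 6 with 1 library left out, and 1 was lower by median of ratios and rescaled TPM and 4 with voom. Over all genes, 1694 higher became 1051 without the filter, 1128 without trend and robust options and 237 to 2047 with 1 library left out; 1201 lower became 2269 with voom and 364 to 891 with 1 library left out.

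The replicate numbers were not shown to pair the libraries: deviations of same-numbered libraries from their group means correlated at 0.031 across genes. With the replicate block, 7 transporters fell, Slc7a3 being added (adjusted p = 0.00995), and all genes gave 1589 higher and 1100 lower. Fits without 1 library take the spread of the single library that remains in its group from the other group. At 53 to 322 reads, Slc7a3 is the member whose value depth limits most.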

Other observations

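Among transporters with little transcript, Slc43a1 (LAT3), which carries large neutral amino acids like LAT1 does, stood at 1.12 and 1.26 TPM with DMSO and at 0.375 and 0.104 TPM with CX-5461. Its mean over the 4 libraries was under 1 TPM, so it was not tested. Slc6a7, a proline transporter known from neurons, stood at 3.42 and 2.18 TPM with DMSO and at 1.41 and 0.432 TPM with CX-5461, a log2 difference of -1.01 that did not pass (limma adjusted p = 0.0909). Both were singled out after their values were seen, and both lay lower in each CX-5461 library than in either DMSO library.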
